A study of Rattus norvegicus with 6 samples.

Results

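Axon guidance ligands and receptors were followed in oligodendrocyte progenitor cells (OPCs) exposed to fibrinogen. The genes were taken by name, as every symbol of the array's gene table that belongs to the semaphorins, plexins, neuropilins, ephrins, Eph receptors, Slits, Robos, netrins, Unc5 receptors or Dcc. This gave 55 genes of the 13949 with a value of their own, and all 55 matching symbols were measured. The families are not complete in that table. Members without a symbol there, such as Slit2, Plxna1, Epha4 and Ntn4, are not covered by any count below. The name pattern also took Unc5cl, which resembles the inner end of the Unc5 receptors but is not a netrin receptor. The cells were primary OPCs of newborn rats, kept for 2 days in a proliferation medium that held PDGF, NT3 and the N2 and B27 supplements. RNA of 3 unstimulated samples and of 3 samples exposed to fibrinogen, the clotting protein of blood plasma, for 12 h was hybridised to 6 Affymetrix arrays. The fibrinogen dose, the rat strain and the sex of the pups were not given in the sources used here, and both groups shared the same medium. The labels do not say that the replicates were separate cultures, so the p-values reflect the spread among these samples alone, and that spread may be technical.

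Guidance cues were named for their part in steering growing axons, and migrating OPCs read the same signals. Class 3 semaphorins are secreted and bind neuropilins, which signal together with plexins, while most other semaphorins are membrane proteins that bind plexins directly. Ephrins on 1 cell bind Eph receptor kinases on the next, Slits bind Robo receptors, and netrins bind Dcc and the Unc5 receptors. Secreted semaphorins and netrin are known to repel or attract OPCs on their way into white matter, and Eph and ephrin contact with axons bears on myelination.

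Each array gave 1 log2 level per probe set, which compares a gene between arrays but not 1 gene with another. Background was read from 956 genes for olfactory and vomeronasal receptors, whose 95th percentile was 5.51, and 48 of the 55 guidance genes (87.3%) had a mean level above it, beside 71.3% of all genes. The 7 at or under it were Epha1, Epha3, Efna5, Robo3, Robo4, Sema4f and Unc5cl. Robo4 is the Robo receptor of endothelium. The arrays differed in spread: the SD of the guidance genes about their group mean was 0.145 on fibrinogen 2, from 0.104 to 0.105 on the other fibrinogen arrays and from 0.0680 to 0.0937 on the control arrays. Fibrinogen 2 gave the highest or the lowest of the 3 fibrinogen values for 72.7% of the guidance genes and for 74.0% of all genes. Precision was limited by the small number of arrays.

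Fibrinogen raised 3 of the 55 guidance genes and lowered 1. The class 3 semaphorin gene Sema3c rose 1.67-fold, the neuropilin gene Nrp2 rose 1.46-fold and the Slit receptor gene Robo1 rose 1.48-fold. The membrane semaphorin gene Sema5b fell to 0.730 of the control level. In such bulk RNA, fewer cells of a type and less RNA per cell cannot be told apart. The other 51 genes did not pass (limma, Benjamini-Hochberg adjusted p under 0.05 over all 13949 genes). The share called was 7.27% of the guidance genes, beside 3.1% of all genes (1.81% higher and 1.29% lower). The median log2 change was 0.05 for the guidance genes and -0.0033 for all genes. The first of these moved to 0.0167 without fibrinogen 3, 0.0233 without control 1 and 0.0203 with array weights. A positive change was found in 31 guidance genes, a negative one in 22 and a change of 0 in 2. Without 1 array, the number of guidance genes called was 2 in the fits without control 1, control 2, control 3 or fibrinogen 1, 4 without fibrinogen 3, and 5 without fibrinogen 2. The share of all genes called fell too, to 1.32%, 1.12%, 1.08% and 1.66% in the first 4 of these fits and to 2.01% without fibrinogen 3, and was 3.13% without fibrinogen 2.

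**Figure D1:**
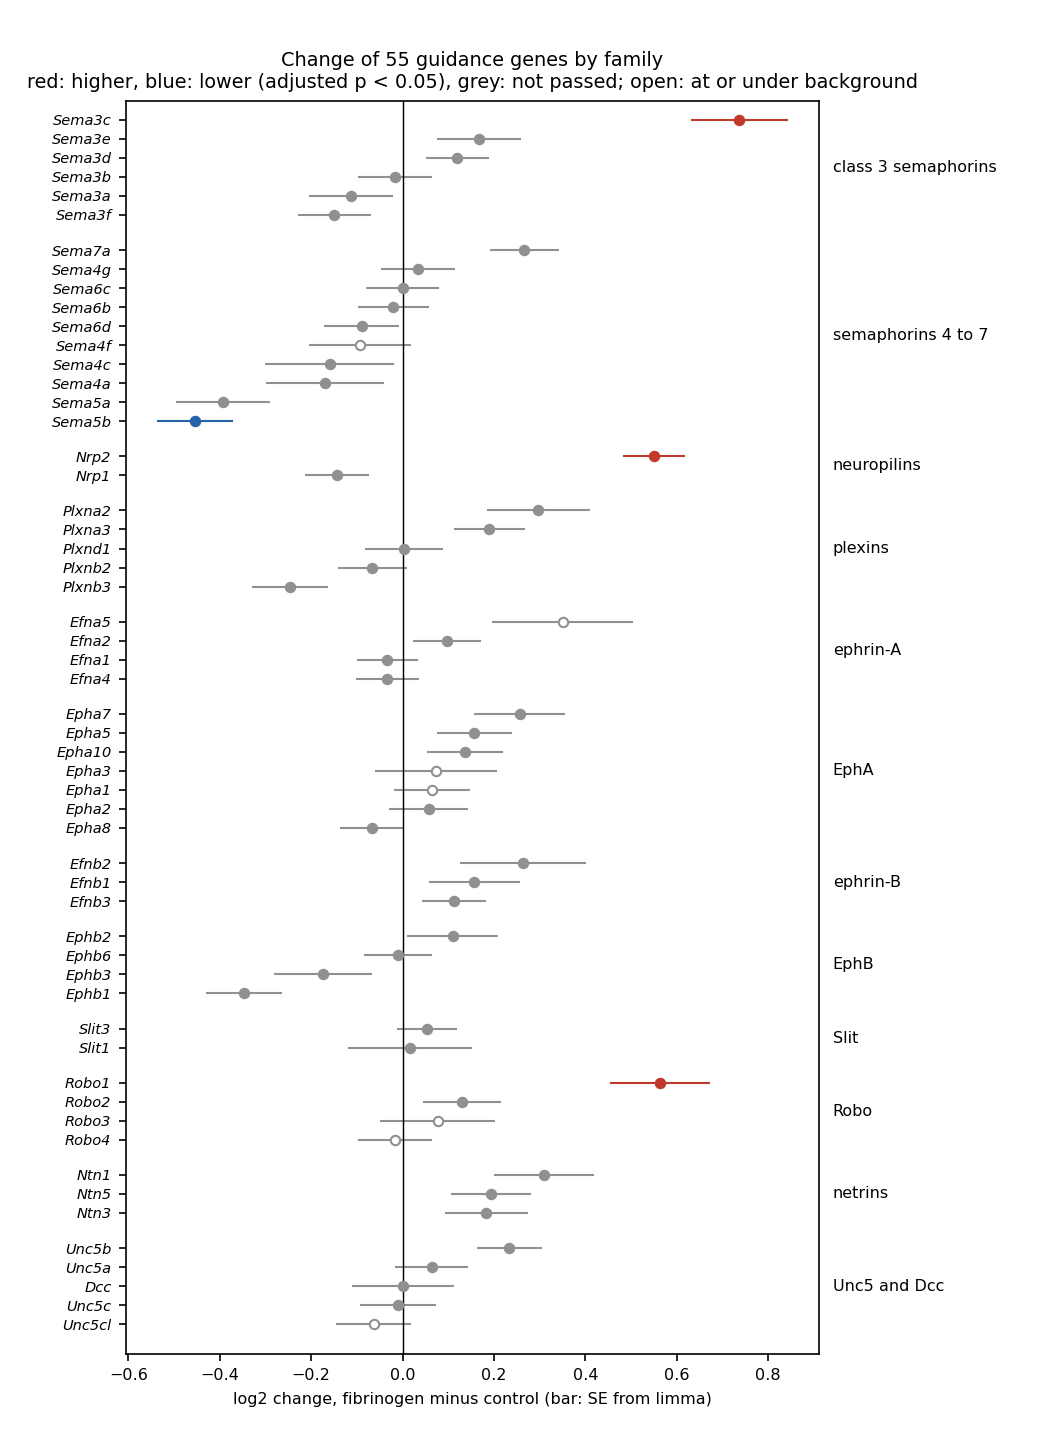
Log2 change from control to fibrinogen (x axis, log2 units) of the 55 guidance genes, grouped by family, with bars for the SE from limma, n = 3 arrays a group. Red and blue points passed at an adjusted p of 0.05, grey points did not, and open points had a mean level at or under background. Sema3c, Nrp2 and Robo1 lie to the right at 0.74, 0.55 and 0.56, and Sema5b to the left at -0.45.

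The upstream sequences of the 4 genes that changed are shown because the title of the series names BMP signaling, whose Smad proteins bind short DNA motifs. They are the 250 bases before each RefSeq start site in rat assembly GRCr8, 5′ to 3′, with capitals for GGCGCC, a GC-rich motif bound by the Smads of the BMP pathway, and for CAGACA or its reverse complement TGTCTG, which hold the CAGA box of Smads. Robo1 has 2 start sites in that table, and the array does not tell which of them was used.
Nrp2, chr9:71617004-71617253, plus strand: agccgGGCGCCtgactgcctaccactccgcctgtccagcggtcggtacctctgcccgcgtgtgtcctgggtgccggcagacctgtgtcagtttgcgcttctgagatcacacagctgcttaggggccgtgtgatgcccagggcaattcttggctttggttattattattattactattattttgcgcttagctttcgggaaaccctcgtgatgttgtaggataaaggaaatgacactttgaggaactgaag
Sema3c, chr4:18699628-18699877, minus strand: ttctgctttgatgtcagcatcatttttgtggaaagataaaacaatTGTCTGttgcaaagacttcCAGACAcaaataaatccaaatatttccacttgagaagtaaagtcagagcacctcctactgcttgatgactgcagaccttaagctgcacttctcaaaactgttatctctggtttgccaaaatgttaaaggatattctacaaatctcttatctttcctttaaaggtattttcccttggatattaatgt
Robo1 (first start), chr11:24067706-24067955, plus strand: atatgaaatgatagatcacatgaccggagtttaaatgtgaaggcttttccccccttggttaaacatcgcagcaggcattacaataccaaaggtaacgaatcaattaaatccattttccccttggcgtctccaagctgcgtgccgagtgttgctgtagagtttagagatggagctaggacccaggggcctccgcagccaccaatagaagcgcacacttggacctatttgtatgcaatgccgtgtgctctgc
Robo1 (other start), chr11:24714445-24714694, plus strand: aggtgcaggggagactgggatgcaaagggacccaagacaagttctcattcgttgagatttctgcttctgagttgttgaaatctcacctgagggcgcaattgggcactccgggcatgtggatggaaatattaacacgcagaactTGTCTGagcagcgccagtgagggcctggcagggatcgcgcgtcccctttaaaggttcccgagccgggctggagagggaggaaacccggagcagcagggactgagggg
Sema5b, chr11:78730590-78730839, minus strand: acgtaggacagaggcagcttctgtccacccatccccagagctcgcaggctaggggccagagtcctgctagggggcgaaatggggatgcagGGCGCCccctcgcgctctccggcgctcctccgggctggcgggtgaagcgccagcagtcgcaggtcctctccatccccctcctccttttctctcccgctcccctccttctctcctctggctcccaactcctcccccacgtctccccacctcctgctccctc
The motif GGCGCC occurred once upstream of Nrp2 and once upstream of Sema5b, genes that changed in opposite directions. CAGACA or TGTCTG occurred 2 times upstream of Sema3c and once at the other start of Robo1. Both strands were searched, and no 2 matches overlapped in these windows. Among all 33469 promoter windows of the same length, 8.69% held GGCGCC and 17.2% held CAGACA. Of the 55 guidance genes, 45 matched the table, with 46 windows, of which 11 (23.9%) held GGCGCC and 6 (13.0%) held CAGACA. The median GC content was 61.0% in these windows and 51.2% in all windows, and GGCGCC is itself made of G and C. The Sema3c window stood out for its base composition, with 35.2% GC and 0 CpG pairs, against 52.8% for Nrp2, 48.0% and 57.2% for the starts of Robo1 and 68.0% for Sema5b. These matches are descriptions of the sequence and not of binding.

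The label of the cells was checked against markers. All 9 measured OPC markers lay above background, and 4 of them fell (Cspg4, Gpr17, Neu4 and Pdgfra) and 0 rose. Matn4, Olig1, Ptprz1, Sox10 and Vcan did not pass, with log2 changes of 0.15, -0.07, -0.03, -0.05 and -0.11. The summed linear level of all 9 was 18128 to 18924 on the control arrays and 15104 to 16358 on the fibrinogen arrays. Such a sum rests most on the brightest probe sets. Of 8 astrocyte markers 2 rose (Gfap and Slc1a2) and 0 fell, with a summed level of 3461 to 3521 in controls and 4306 to 4836 after fibrinogen. Before adjustment 6 of the 8 were higher at a p under 0.05 in limma, the others being Aldoc, Fgfr3, S100b and Slc1a3. That is 75% of the list, beside 15.6% of all genes. Aqp4 and Gja1 had log2 changes of 0.01 and -0.04. Of 9 oligodendrocyte markers 1 rose (Ermn) and 3 fell (Cnp, Fa2h and Ugt8). The summed level of the 9 was 4420 to 4926 in controls and 3847 to 4234 after fibrinogen. Mag, Mbp, Mobp, Mog and Opalin did not pass, with log2 changes of 0.02, 0.20, 0.08, -0.14 and 0.08. The share called was 44.4% of the OPC and of the oligodendrocyte markers and 25% of the astrocyte markers, beside 3.1% of all genes. Of 12 neuron markers 9 lay above background (3496 to 3556 against 3515 to 3935), and 1, Gad2, fell from a mean level that was itself under background. Nefl and Nefm had changes of 0.32 and 0.38 without overlap between groups, and did not pass (adjusted p = 0.247 and 0.129, limma). None of 10 microglia, 6 endothelial and 8 pericyte and fibroblast markers passed in limma (0, 0 and 1 at an unadjusted p under 0.05). Above background lay 4 (C1qb, Cd68, Cx3cr1 and P2ry12), 2 (Cdh5 and Esam) and 4 (Col1a1, Col1a2, Col3a1 and Rgs5) of them. Itgam, Ptprc, Cldn5, Tek and Dcn were among those under it. The summed levels of these lists, in the same order, were 459 to 481 against 447 to 475, 196 to 197 against 197 to 204, and 456 to 492 against 441 to 484. Guidance genes are expressed by astrocytes and neurons too. The part of these markers in the changes of Sema3c, Nrp2, Robo1 and Sema5b was not tested.

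Among the secreted class 3 semaphorins, Sema3c alone of 6 measured genes passed. Its log2 levels were 6.03, 5.65 and 5.81 in controls and 6.61, 6.64 and 6.45 after fibrinogen. The control mean, 5.83, was not far above background at 5.51. All fibrinogen values lay above all control values, with a gap of 0.42 between the groups. The log2 change was 0.74 ± 0.11 (SE), with an adjusted p of 0.0086 in limma, and 99.4% of all genes had a change of that size or smaller. Without each array in turn its adjusted p was at most 0.0491, so the call stood in all 6 such fits. Sema3a, the cue classed as a repellent of OPCs, had a change of -0.11 ± 0.09 (SE), and Sema3f, classed as an attractant, one of -0.15 ± 0.08, and neither passed. Sema3d and Sema3e had changes of 0.12 and 0.17 and Sema3b one of -0.02.

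Of the neuropilins, co-receptors that bind class 3 semaphorins and VEGF, Nrp2 rose and Nrp1 did not pass. The log2 level of Nrp2 was 6.13, 6.11 and 6.04 in controls and 6.67, 6.60 and 6.66 after fibrinogen. The groups were 0.47 apart and the arrays within each group were close, with SDs of 0.05 and 0.04 (n = 3 each). The change was 0.55 ± 0.07 (SE), with an adjusted p of 0.00412 in limma, and its call stood without each array in turn (adjusted p at most 0.0303). Nrp1 had log2 levels of 5.78, 5.68 and 5.80 in controls and 5.56, 5.65 and 5.62 after fibrinogen. All 3 fibrinogen values of Nrp1 were lower, but the change of -0.14 ± 0.07 (SE) did not pass (adjusted p = 0.383, limma). The mean level of Nrp1, 5.68, lay close to background at 5.51. The changes of the neuropilins differed by 0.69, with an exact two-sided permutation p of 0.1, the smallest that 3 against 3 arrays can give.

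None of the 5 measured plexins, the signalling partners of neuropilins and the receptors of membrane semaphorins, passed. Plxna2, a partner of neuropilins, had log2 levels of 8.18, 7.88 and 7.82 in controls and 8.14, 8.41 and 8.22 after fibrinogen, so that the groups overlapped. Plxna3, of the same class, had 7.49, 7.31 and 7.44 in controls and 7.53, 7.66 and 7.62 after fibrinogen, just above the highest control. Neither change passed, at 0.30 ± 0.11 for Plxna2 and 0.19 ± 0.08 (SE) for Plxna3 (adjusted p = 0.243 and 0.280, limma). Plxnb3, a plexin that oligodendrocytes express and that binds Sema5a, had 8.58, 8.78 and 8.74 in controls and 8.48, 8.35 and 8.53 after fibrinogen, all lower than the controls, but with an adjusted p of 0.190 for a change of -0.25 ± 0.08 (SE). Plxnd1, another receptor of class 3 semaphorins, had a change of 0.0033, whose sign turned under other normalizations, and Plxnb2, a receptor of class 4 semaphorins, one of -0.07.

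Of the 10 semaphorins of classes 4 to 7, 1 fell and 9 did not pass, with 7 negative changes, 2 positive ones and 1 of 0. The signs of Sema4c, Sema4f, Sema4g and Sema6b turned under at least 1 alternative setting or without 1 array. Sema5b, a membrane semaphorin with thrombospondin repeats, had log2 levels of 7.99, 7.99 and 7.92 in controls and 7.54, 7.37 and 7.63 after fibrinogen. Every fibrinogen value lay at least 0.29 below the lowest control. The change was -0.45 ± 0.08 (SE), with an adjusted p of 0.0251 in limma. That call ended without control 1, control 2, control 3 or fibrinogen 1 (adjusted p = 0.104, 0.114, 0.0876 and 0.0703, limma), while the change stayed between -0.51 and -0.38 without any 1 array.

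Its relative Sema5a had log2 levels of 7.13, 7.32 and 7.31 in controls and 6.69, 7.05 and 6.84 after fibrinogen, without overlap. The change of -0.39 ± 0.10 (SE) did not pass (adjusted p = 0.0909, limma), but did without fibrinogen 2 (adjusted p = 0.0372, log2 change -0.49) and when arrays were weighted by their spread (adjusted p = 0.0214). The changes of Sema5b and Sema5a differed by -0.06, with SDs of that difference of 0.13 in controls and 0.29 after fibrinogen (n = 3 each). The exact two-sided permutation p was 0.8. Since that test can give no p under 0.1 here, it could not have passed at 0.05 for a difference of any size. Sema7a, a semaphorin held by a lipid anchor that binds integrins, had 8.28, 8.35 and 8.24 in controls and 8.64, 8.56 and 8.47 after fibrinogen. Its groups did not overlap, and its change of 0.27 ± 0.07 (SE) had an adjusted p of 0.114 in limma. The changes of Sema4a, Sema4c, Sema4f, Sema4g, Sema6b, Sema6c and Sema6d lay between -0.17 and 0.03. A second probe set of Sema4c gave -0.03, beside -0.16 for the one used.

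**Figure D2:**
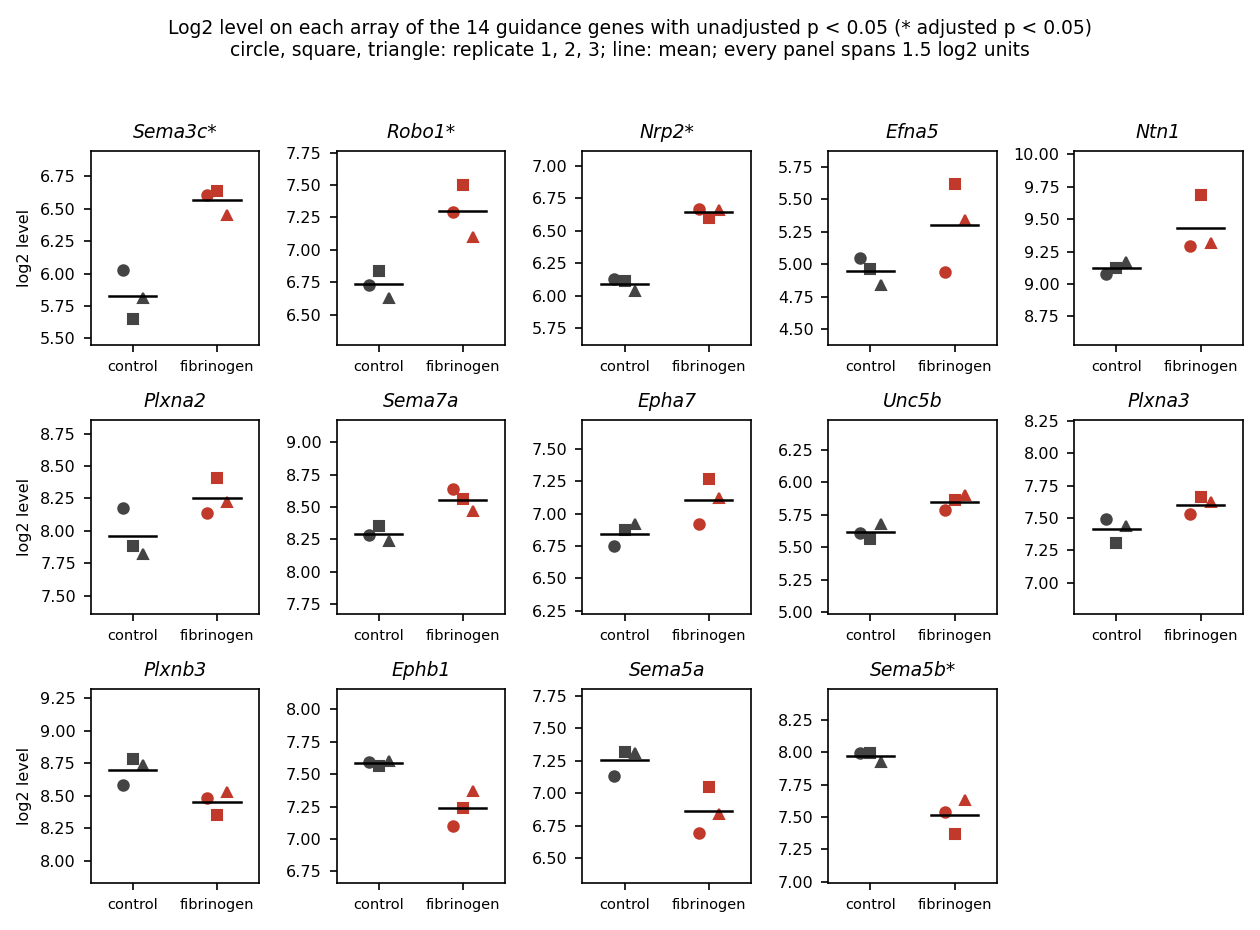
Log2 level (y axis) on each of the 6 arrays for the 14 guidance genes with an unadjusted p under 0.05, with lines for the means of 3 arrays and symbols for replicates 1, 2 and 3. Stars mark the 4 genes that passed after adjustment; the groups are farthest apart in Nrp2 (gap 0.47) and Sema3c (0.42), and in Efna5 the square of fibrinogen 2 stands at 5.62 while fibrinogen 1 (4.94) lies among the controls.

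The Robo receptors bind Slits, and Robo1 was the member of that family that rose. Its log2 levels were 6.73, 6.84 and 6.63 in controls and 7.29, 7.50 and 7.10 after fibrinogen. The groups did not overlap, and fibrinogen 2 was the highest array. The change was 0.56 ± 0.11 (SE), with an adjusted p of 0.0318 in limma. The call ended without control 1, control 2, control 3 or fibrinogen 1 (adjusted p = 0.114, 0.0723, 0.131 and 0.0905, limma) and when all probe sets were fitted (0.0508). Without fibrinogen 2 the change was 0.46 with an adjusted p of 0.0498. Robo2 had 5.40, 5.60 and 5.46 in controls and 5.62, 5.51 and 5.72 after fibrinogen, overlapping, with a change of 0.13 ± 0.09 (SE). The changes of Robo1 and Robo2 differed by 0.43, again with an exact two-sided permutation p of 0.1. The 2 measured ligands, Slit3 and Slit1, did not pass. Slit3 had log2 levels from 5.47 to 5.55 in controls and from 5.53 to 5.59 after fibrinogen. Its change was 0.05 ± 0.07 (SE), with an adjusted p of 0.776 in limma. Slit1 had one of 0.02, whose sign turned without control 1, fibrinogen 2 or fibrinogen 3. The mean levels of Slit3, Slit1 and Robo2 (5.53, 5.53 and 5.55) lay close to background at 5.51.

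4 such differences between relatives were computed, the fourth being Sema3c less Sema3a at 0.85 with an exact two-sided permutation p of 0.1. The pairs were chosen after their values were seen. After Benjamini-Hochberg adjustment over the 4 the p-values were 0.133 for 3 pairs and 0.8 for Sema5b and Sema5a, and no p under 0.1 was possible before adjustment in this design.

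No measured netrin and no measured netrin receptor passed. Ntn1, the secreted netrin that OPCs respond to as they migrate, had log2 levels of 9.08, 9.12 and 9.17 in controls and 9.29, 9.69 and 9.32 after fibrinogen. All fibrinogen values were above all controls, with fibrinogen 2 well above the rest. The change of 0.31 ± 0.11 (SE) had an adjusted p of 0.205 in limma, and it was 0.18 without fibrinogen 2. Ntn3 and Ntn5 had changes of 0.18 and 0.19. Unc5b, which mediates repulsion by netrin, had 5.61, 5.56 and 5.68 in controls and 5.79, 5.86 and 5.90 after fibrinogen. The groups did not overlap, but the change of 0.23 ± 0.07 (SE) did not pass (adjusted p = 0.141, limma), and the level lay close to background. Dcc, the receptor for attraction, had a change of 0, and Unc5a and Unc5c had changes of 0.06 and -0.01.

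None of the 18 measured ephrin and Eph receptor genes passed in the reported fit. The closest was Ephb1, a receptor of ephrin-B proteins, with log2 levels of 7.59, 7.56 and 7.60 in controls and 7.10, 7.24 and 7.37 after fibrinogen. The controls were almost equal, and all 3 fibrinogen values were lower by at least 0.19. The change of -0.35 ± 0.08 (SE) had an adjusted p of 0.0667 in limma. It passed only when dim genes were left out of the fit (adjusted p = 0.0399 above the receptor percentile and 0.0392 without the lowest 30% of genes). Ephb3 had a change of -0.17, Ephb2 one of 0.11 and Ephb6 one of -0.01. The ephrin-B ligands Efnb1, Efnb2 and Efnb3, membrane proteins that also signal backwards into their own cell, had changes of 0.16, 0.26 and 0.11. Efnb2 had 5.87, 5.81 and 5.70 in controls and 5.93, 6.40 and 5.84 after fibrinogen, so that 1 array, fibrinogen 2, was high. The change was 0.26 ± 0.14 (SE; adjusted p = 0.417, limma) with it and 0.09 without it.

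Among the 7 EphA receptors, which bind lipid-anchored ephrin-A ligands, changes lay between -0.07 and 0.26. Epha7 had the largest, with log2 levels of 6.75, 6.87 and 6.92 in controls and 6.92, 7.27 and 7.12 after fibrinogen. One fibrinogen value equalled the highest control, and the change of 0.26 ± 0.10 (SE) had an adjusted p of 0.255 in limma. The ephrin-A gene Efna5 had 5.05, 4.96 and 4.84 in controls and 4.94, 5.62 and 5.34 after fibrinogen. The groups overlapped and the mean level was under background, and its change of 0.35 ± 0.15 (SE) did not pass (adjusted p = 0.319, limma). Without fibrinogen 2 the change was 0.19. Efna2, the ephrin-A gene above background with the largest change, had 6.75, 6.75 and 6.58 in controls and 6.76, 6.80 and 6.81 after fibrinogen. Its groups were 0.01 apart, and the change of 0.10 ± 0.07 (SE) did not pass (adjusted p = 0.614, limma). Efna1 and Efna4 had changes of -0.03 each.

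Before adjustment, 14 of the 55 guidance genes (25.5%) had a p under 0.05 in limma, beside 15.6% of all genes. These were 10 with a higher level, where the share of all genes was 8.12%, and 4 with a lower one, where it was 7.46%. Overlap was counted apart from the test, and groups that did not overlap were found for 21.3% of all genes. In 11 guidance genes (20.0%) every fibrinogen value was above every control, beside 10.7% of all genes, and in 5 (9.09%) every value was below, beside 10.6% of all genes. Changes of at least 0.5 on the log2 scale were found in 3 guidance genes, or 5.45%, beside 2.01% of all genes. On the higher side both counts were above the share among all genes, and on the lower side both were near it.

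**Figure D3:**
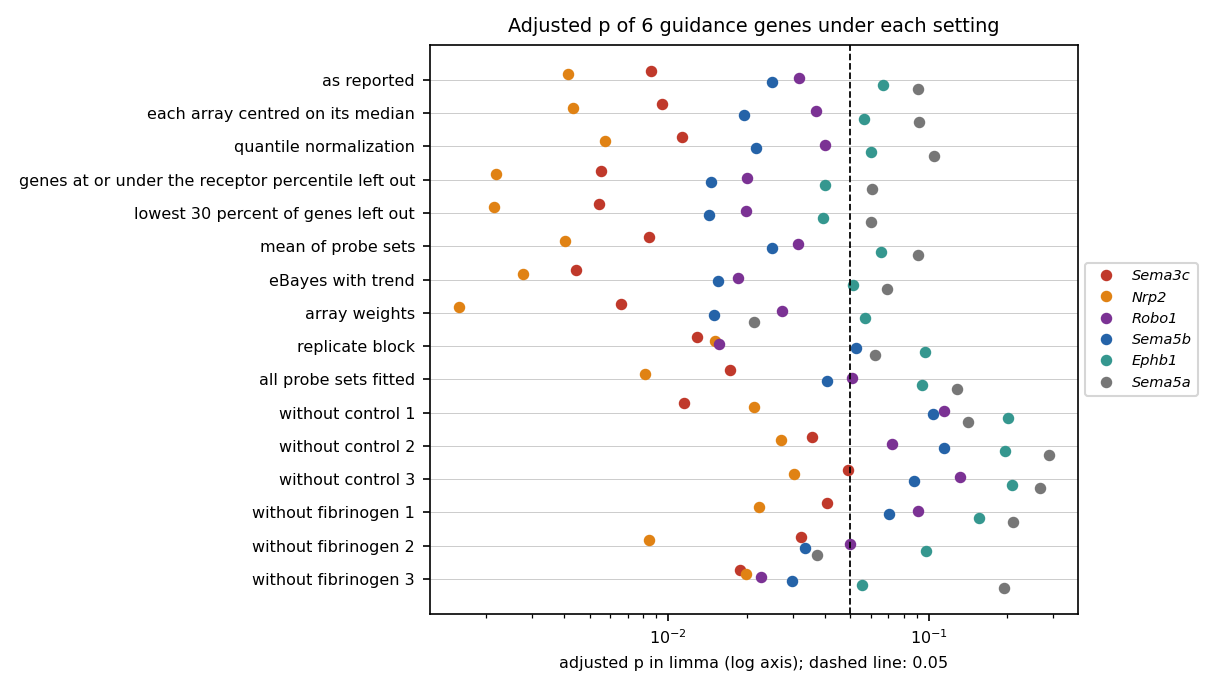
Adjusted p in limma (x axis, log scale) of 6 guidance genes under the reported fit, 9 other settings and 6 fits without 1 array (rows), with a dashed line at 0.05. Sema3c and Nrp2 lie left of the line in every row, while Robo1 and Sema5b cross it without any 1 control or without fibrinogen 1, Sema5b also at 0.0526 with the replicate block and Robo1 at 0.0508 with all probe sets fitted.

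Proteins that act with or below these receptors were followed in 4 lists drawn up from general knowledge, of which 81 of 100 genes were measured. Of these 2 rose, 3 fell and 76 did not pass, with a median log2 change of -0.0033. The share called was 6.17%, beside 3.1% of all genes. Before adjustment 9 were higher and 6 lower at a p under 0.05 in limma, or 18.5% of the 81. Of all genes 15.6% had such a p (8.12% higher and 7.46% lower). The balance of directions depended on the setting. It was 8 higher and 3 lower when dim genes were left out, and 0 higher and 3 lower when all probe sets were fitted. Without control 1, control 2, control 3 or fibrinogen 1 it was 0 higher and 2 lower. Of all genes in the same fits, 5.98% or 6.10% were called without dim genes and 2.06% with all probe sets fitted. Of 24 genes listed as partners of semaphorins and plexins, 1 rose and 1 fell (median 0.0033). Of 20 partners of Eph receptors and ephrins, 1 rose and 2 fell (median 0.01). None of 19 partners of netrins and Slits passed in limma (median -0.05). Before adjustment 1 was higher and 2 were lower with a p under 0.05, or 15.8%, near the share of all genes.

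Rap1gap, which switches off the GTPase Rap1, was the gene of the semaphorin and plexin list that fell. Its place there came from general knowledge, and no link to plexins was tested here. The log2 levels of Rap1gap were 8.51, 8.66 and 8.65 in controls and 7.96, 7.81 and 7.90 after fibrinogen. Its log2 change was -0.72 ± 0.08 (SE), with an adjusted p of 0.00248 in limma. Chn2, a chimaerin that switches off Rac, had 9.39, 9.40 and 9.44 in controls and 8.94, 8.92 and 8.91 after fibrinogen, and fell by 0.49 ± 0.06 (SE) with an adjusted p of 0.00568. Both groups were tight and apart, and both calls stood without each array in turn. Fyn, a Src-family kinase that acts below netrin and Eph receptors and in myelination, had 11.06, 11.15 and 11.11 in controls and 10.67, 10.63 and 10.75 after fibrinogen. It fell by 0.42 ± 0.07 (SE), with an adjusted p of 0.0161, and its call ended without control 1, control 2, control 3 or fibrinogen 1 (adjusted p = 0.0544, 0.0900, 0.0810 and 0.0562, limma).

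Rnd1, which binds plexins, had log2 levels of 5.94, 5.90 and 5.85 in controls and 6.57, 6.47 and 6.18 after fibrinogen, and rose by 0.51 ± 0.10 (SE) with an adjusted p of 0.0373 in limma. Sipa1l1, which acts on Rap GTPases and binds Eph receptors, had values from 7.40 to 7.67 in controls and from 7.92 to 8.27 after fibrinogen, and rose by 0.55 ± 0.11 (SE) with an adjusted p of 0.0369. Neither gene overlapped between groups, and neither call was firm. That for Rnd1 ended without any array but fibrinogen 3 (adjusted p from 0.0827 to 0.142), after quantile normalization (0.0518) and when all probe sets were fitted (0.0585). That for Sipa1l1 ended without any 1 array (0.0510 to 0.145), with the replicate block (0.0570) and when all probe sets were fitted (0.0583). Dscam, a receptor that binds netrin, had log2 levels of 7.65, 7.77 and 7.79 in controls and 7.22, 7.54 and 7.33 after fibrinogen, without overlap. Its change of -0.37 ± 0.09 (SE) did not pass (adjusted p = 0.0792, limma), but did without fibrinogen 2 (0.0276), with array weights (0.0172) and with the mean of probe sets (0.0465).

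**Figure D4:**
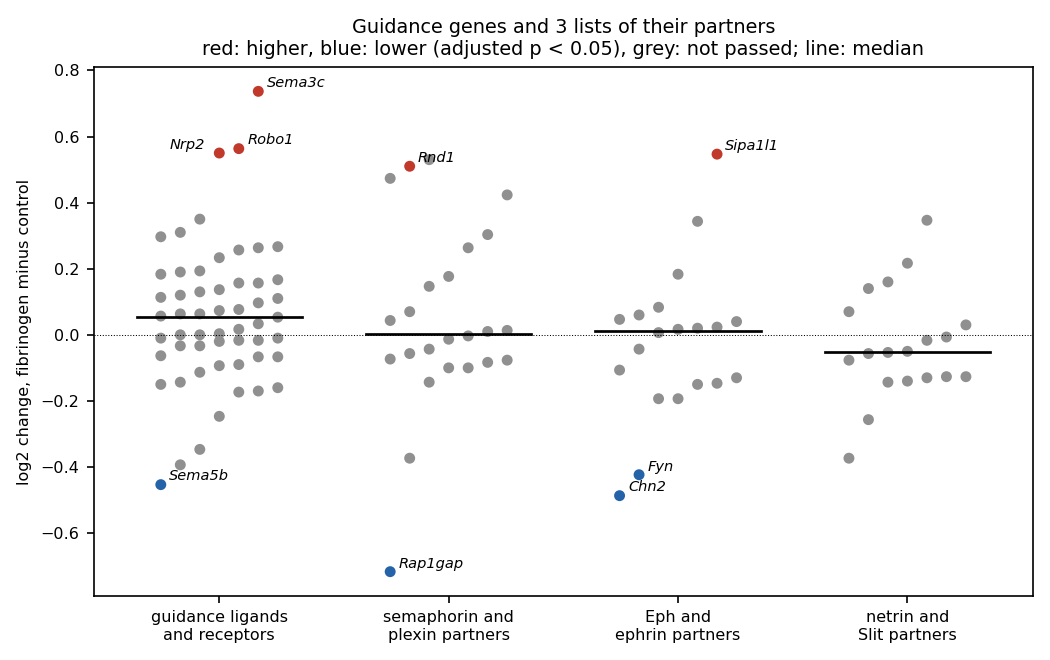
Log2 change from control to fibrinogen (y axis) of the 55 guidance genes and of 3 lists of their partners, 1 point per gene, with lines for the medians. Red and blue points passed at an adjusted p of 0.05 and are named; the largest fall is that of Rap1gap at -0.72, and no point of the netrin and Slit list is coloured.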

How the data were processed

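RNA of 3 control and 3 fibrinogen samples was measured on 6 Affymetrix arrays, and the sample titles gave each group and replicate number. The deposited values are log2 levels with 2 decimals. RMA and limma are named, without versions or roles, per the submitters' processing notes, so the authors' normalization is read here as RMA. The log2 scale was inferred from the values, and centring and genome build are not given in the sources used here. Such normalization can compress the changes of dim genes.

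Of 26312 probe sets, 1206 were blank, and 14700 of the rest had 1 gene symbol in the platform's annotation (275 had several and 10131 none). The probe set with the highest mean was used per gene, which mattered for 1 guidance gene, Sema4c. All 13949 genes were fitted with lmFit and eBayes of limma 3.58.1, run in R 4.3.3, two-sided and without covariates, with Benjamini-Hochberg adjustment over all of them at 0.05. SEs are the moderated ones from limma, and SDs are over 3 arrays. The procedure was tested on simulated data. Full values are given for guidance genes with an unadjusted p under 0.05 and the gene above background with the largest change in each family, and for partner genes that passed or, where none did, the largest. Nrp1, Robo2, the pairs of relatives and the values of other genes given in full were chosen after the values were seen. The members, lists and tests were chosen with earlier results of these data known. The labels do not say whether samples with the same replicate number were paired. Their deviations from the group means were barely correlated (0.01 to 0.03 over all genes). Promoters were taken from RefSeq GRCr8 by gene ID; no coordinates of the array design are given. Values of 1 of the 4 partner lists are not reported here beyond the total.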

Additional observations from a re-analysis of the deposited data

How the results depend on the processing

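Of the calls on guidance genes, those for Sema3c and Nrp2 stood under all 15 alternatives, with log2 changes of 0.65 to 0.84 and 0.52 to 0.57. Robo1 and Sema5b passed in 10 of 15 each. No gene whose values are given in full by the stated rule changed sign. Of the other guidance genes, 36 had a change other than 0, and 11 of these changed sign under at least 1 alternative. The 11 were Epha3, Ephb6, Plxnd1, Robo4, Sema3b, Sema4c, Sema4f, Sema4g, Sema6b, Slit1 and Unc5c. Their reported changes were -0.16 to 0.07 and the alternative ones -0.27 to 0.18. With all arrays kept, 5 of the 11 changed sign (Epha3, Ephb6, Plxnd1, Robo4 and Sema4f). The number of guidance genes called was 4 or 5 under other normalizations, filters, variance models and the mean of probe sets, and the number of all genes called was 659 with array weights, which gave fibrinogen 2 the lowest weight (0.318). With the replicate number as a block, 3 guidance genes passed and Sema5b did not (adjusted p = 0.0526, limma), nor did Sipa1l1 (0.0570); the number of all genes called was 315, against 432. When all probe sets with values were fitted, an alternative chosen after the data were seen, 287 genes passed, with 3 guidance genes (not Robo1) and 3 partner genes. Leaving out genes at or under the receptor percentile, or the lowest 30%, raised the number of partner genes called from 5 to 11. In both fits 8 were higher and 3 lower. The number was 10 with a trend in the variance (7 and 3) and 10 with array weights (6 and 4). The share of all fitted genes called rose too, from 3.1% to 5.98% and 6.10% with these filters. That share was 4.01% with the trend and 4.72% with array weights. The median change of the guidance genes was 0.033 without the lowest 30% of genes, a fit with 45 of them, and 0.0203 with array weights. Leaving out each array in turn gave 151 to 436 changed genes, 2 to 5 guidance genes, 2 to 6 partner genes and a median change of the guidance genes of 0.017 to 0.060. With 5 arrays fewer degrees of freedom remain, and the cause of the other shifts was not tested. Changes of genes near or under background are to be read with care, since normalization can compress them.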
